A study of Homo sapiens with 6 samples.

Results

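Collagens, laminins and fibulins are the structural proteins of the extracellular matrix, and their genes were followed here in cells labelled Huh-7, the name of a liver cancer cell line. The members were all genes of the deposited table whose symbol is that of a collagen chain, a laminin chain, a numbered fibulin or fibronectin (FN1). They numbered 61 of 58174 listed genes, made up of 44 collagen, 12 laminin and 4 fibulin genes and FN1. The series asks how the microRNA miR-27a-3p bears on the response of hepatocellular carcinoma to cisplatin, and no cisplatin treatment is named in the labels. Cells in medium with 10% fetal bovine serum were transfected by lipid reagent with miR-27a-3p mimics, synthetic RNA duplexes that stand in for the mature microRNA, or with a negative control named NC whose sequence is not given. After 48 h they were detached with trypsin, and libraries for mRNA were made from 1 µg of total RNA. There were 3 samples in each group. Whether the 3 were cultured apart is not said in the labels, so the p-values reflect no more than the spread among these samples, which may be technical.

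Most collagen molecules are made of 3 chains wound into a triple helix, which are either alike or encoded by different genes. Type IV collagen builds the network of basement membranes, the thin sheets under epithelia. Laminins are cross-shaped molecules of 1 alpha, 1 beta and 1 gamma chain that polymerize in the same sheets and are bound by cell receptors. Fibulins bridge such networks and elastic fibres. In liver the matrix in scars is mainly laid down by activated stellate cells and fibroblasts, while tumour cells can make basement membrane chains of their own.

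Levels are FPKM, fragments scaled to gene length and to each library's mapped total, and are therefore relative. Read numbers are not given. Many low genes shared the same product of FPKM and length within a sample, which if taken as 1 fragment implies about 17100000 to 21300000 fragments in controls and 25300000 to 31300000 in mimic samples. Mitochondrial genes took 32.8% of summed FPKM in control sample 3 and 38.9% in mimic sample 3, against 14.6% to 24.3% in the other samples. Defining markers of the labelled cell type were absent or low. Of 10 hepatocyte genes 9 were under 1 FPKM in all samples, among them ALB, whose highest value was 0.0110 FPKM, and AFP, whose highest was 0.0237 FPKM. The exception, SERPINA1, reached 1.49 FPKM. The 10 hepatocyte genes summed to 1.15 to 2.15 FPKM in controls and 0.912 to 1.27 in mimic samples. Within that sum SERPINA1 was lower in every mimic sample (0.708 to 1.49 FPKM in controls, 0.0787 to 0.276 in mimic samples) and HNF4A higher (0.129 to 0.246 and 0.757 to 0.980 FPKM). Among 10 markers of fibroblasts and stellate cells, which make much matrix, 7 were under 1 FPKM throughout, PDPN was at 0 and PDGFRA at 0 in 5 of 6 samples, while ACTA2 lay at 15.6 to 20.9 FPKM in controls and 9.42 to 13.1 in mimic samples. PDGFRB (0.370 to 0.627 and 0.827 to 1.16 FPKM), DES (0 to 0.135 and 0.233 to 0.324) and LUM (0.0172 to 0.0376 and 0.0785 to 0.136) were instead higher in every mimic sample. The list, most of it ACTA2, summed to 17.8 to 22.7 FPKM in controls and 11.7 to 16.1 in mimic samples, and its part in the changes below was not tested. Endothelial markers were under 1 FPKM in 5 of 6 genes (sums 1.42 to 2.94 in controls, 0.535 to 0.854 in mimic samples) and leukocyte markers in 4 of 6, with CD68 at 7.65 to 9.04 FPKM in controls and 10.8 to 19.0 in mimic samples, and CD14 at 0.787 to 1.54 and 0.348 to 0.463 FPKM. The leukocyte list summed to 8.71 to 10.6 and 11.3 to 19.4 FPKM.

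A microRNA guides its protein complex to messages that pair with its seed, bases 2 to 8. The mature sequence is shown because the mimic carries it, with the seed in capitals (RefSeq, GRCh38.p14, chr19:13836447-13836467, minus strand).
hsa-miR-27a-3p: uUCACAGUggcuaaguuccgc
The complement of this seed was looked for in each gene's longest 3' UTR (GENCODE 29). The strongest class, the 8mer, is ACTGTGAA, and the weaker ones are ACTGTGA (7mer-m8) and CTGTGAA (7mer-A1). Among the 28 members that were high enough to be tested, 3 held an 8mer, 1 a 7mer-m8 as its best match and 1 a 7mer-A1, and 23 (82.1%) held none. Of 11465 tested genes with a searched UTR, 6.55% held an 8mer and 71.1% none. For 10.9% the best match was a 7mer-m8 and for 11.5% a 7mer-A1. These shares were not adjusted for UTR length, which in the tested members ran from 112 bases (LAMB2) to 4614 (COL4A4). The 5 tested members with a match are shown by their sites, 1 site for each except FN1, which has a pair. The matched bases are in capitals at the 3' end of each 30-base stretch.
COL5A1 (8mer, chr9:134843989-134844018, plus strand): agccaggaaaggcgatctcttcACTGTGAA
COL27A1 (8mer, chr9:114311265-114311294, plus strand): gtgcccacgtttgctacctcccACTGTGAA
FBLN5 (8mer, chr14:91869875-91869904, minus strand): gggtctgagtctatgttcaaagACTGTGAA
FN1 (7mer-m8, chr2:215361118-215361147, minus strand): gtaggaacaagcatgatcttgttACTGTGA
FN1 (7mer-A1, chr2:215360807-215360836, minus strand): gacaccttcgggggaaataattcCTGTGAA
LAMC3 (7mer-A1, chr9:131091874-131091903, plus strand): cagacattccccggagccggctgCTGTGAA
COL5A1 and COL27A1 fell, FBLN5 was not called, and FN1 and LAMC3 were called higher, with values given below. The tested genes with the largest falls, COL4A5, LAMA3 and COL4A3, held no match of these classes in the searched UTR. Among members too low to be tested, COL11A2 held an 8mer and COL25A1 a 7mer-A1, while COL4A6 and COL26A1 held no match. Each of these was called lower in a fit with no filter on low values, given below. No other low member with a match was called there. Over all 61 members, 48 held no match.

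Of the 61 genes, 28 averaged 1 FPKM or more across all 6 samples and were tested. By limma with Benjamini-Hochberg adjustment over all 14439 genes tested, 19 of these 28 differed at an adjusted p under 0.05, with 14 lower and 5 higher in mimic samples. Over all tested genes 51.6% were called, 39.6% as lower and 12.0% as higher. FN1 and LAMC3 passed the filter only through the mimic group, where they are high, and without them 3 members were higher. The count is thus read against a background in which most calls are falls. The median log2 change was -0.41 for the 28 members and -0.29 for all tested genes. Median-of-ratios scaling moved the median of all genes to 0.01, and the members then divided into 10 lower and 9 higher, against 27.4% and 26.9% of all genes. Changes smaller than this shift have a direction only relative to the chosen scale. Falls of at least 2-fold were called in 8 members and rises of that size in 2, against 18.5% and 2.47% of all tested genes. Mimic samples lay below every control in 16 of the 28 genes and above every control in 5, against 44.3% and 16.2% of all tested genes. In such bulk samples, fewer cells that express a gene and less RNA per cell cannot be told apart.

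**Figure D1:**
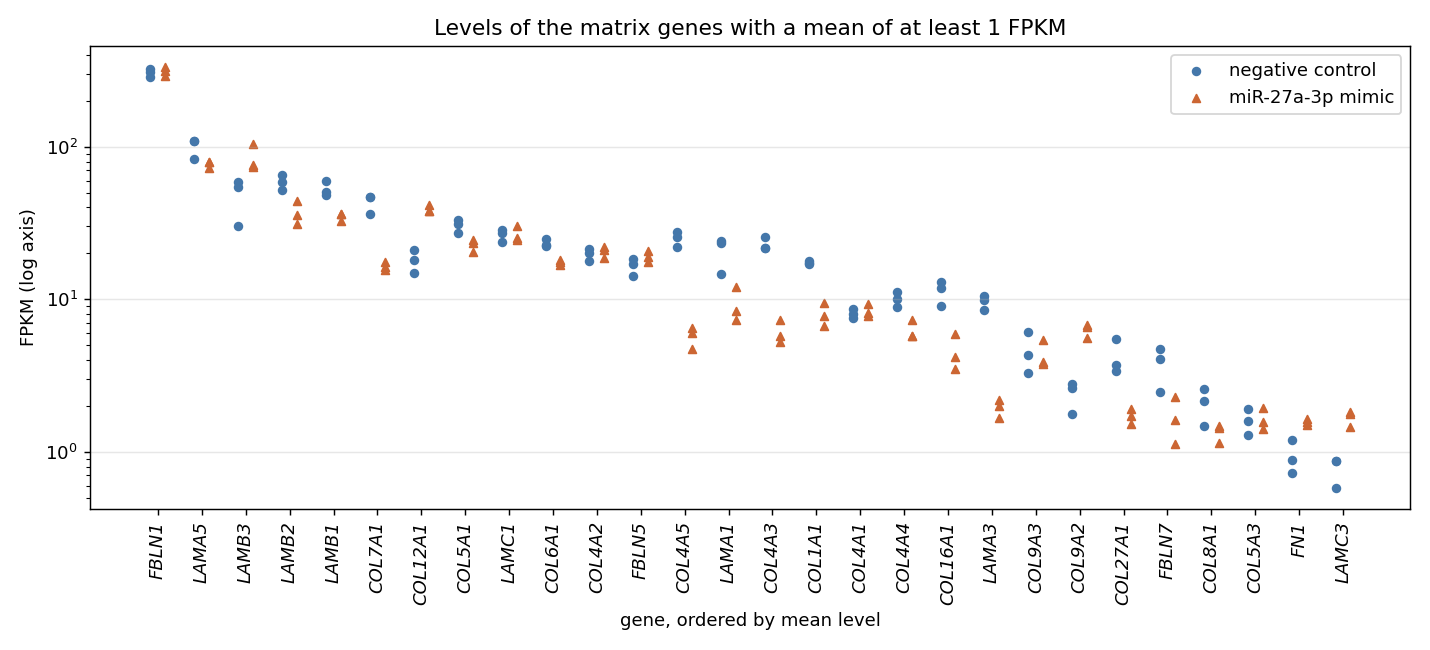
FPKM on a log axis of the 28 tested genes in each of the 3 negative control samples (circles) and 3 mimic samples (triangles), ordered by mean level. FBLN1 stands above all others in every sample, and the groups part most clearly at COL4A5, COL4A3 and LAMA3 (mimic lower) and at COL12A1 and COL9A2 (mimic higher).

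The highest members in controls were FBLN1 and the laminin chains LAMA5, LAMB2 and LAMB1, and several genes of interstitial matrix were low. FBLN1, a secreted protein that binds fibronectin and laminin networks, ranked 156 of the tested genes by mean level and held 34.4% ± 1.60 (SD, n = 3) of the summed FPKM of all members in controls. Laminins summed to 318 ± 47.5 FPKM in controls, collagens to 249 ± 22.7 and fibulins to 327 ± 22.5 (SD, n = 3 each). FN1, abundant in plasma and scar tissue, was at 0.934 ± 0.235 FPKM. COL3A1, a fibrillar chain of stretchable tissue, was at 0.0877 ± 0.0272, and COL1A2 at most 0.00859 in any sample. Another 5 genes (COL6A5, COL9A1, COL22A1, COL23A1 and LAMB4) were listed at 0 throughout.

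Several chains stood without the partner they are usually assembled with. COL1A1 was at 17.4 ± 0.408 FPKM in controls (SD, n = 3), while COL1A2, which encodes the other chain of type I collagen, was listed at 0 in 4 of the 6 samples. COL6A1 was at 23.4 ± 1.48, against 0.0856 ± 0.0680 for COL6A2 and 0.0102 ± 0.00888 for COL6A3. COL5A1 exceeded COL5A2 by a ratio of 155 ± 38.8. These are levels per length and say nothing of the amount of protein.

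Type IV collagen genes divided in mimic samples. COL4A5 was at 27.7, 22.0 and 25.7 FPKM in controls and 6.00, 6.45 and 4.70 in mimic samples, in sample order here and below. It fell from 25.1 ± 2.86 to 5.72 ± 0.911 (log2 change -2.05, SE 0.16, adjusted p = 5.9e-05 by limma). COL4A3 was at 25.7, 21.5 and 21.6 FPKM in controls and 5.78, 7.34 and 5.22 in mimic samples (log2 change -1.83, SE 0.16, adjusted p = 8.6e-05 by limma). In both genes every mimic sample lay far below the lowest control, and both encode chains of the network found in kidney and lung basement membranes. Their partner COL4A4 was at 11.2, 10.1 and 8.88 FPKM in controls and 5.72, 7.27 and 5.70 in mimic samples, a smaller fall without overlap (log2 change -0.65, SE 0.15, adjusted p = 0.00762 by limma). The COL4A4 call was lost after quantile normalization (adjusted p = 0.0675).

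COL4A1 and COL4A2, which encode the chains found in nearly all basement membranes, were not called on the deposited scale. COL4A2 was at 20.0, 21.2 and 17.7 FPKM in controls and 22.1, 21.1 and 18.8 in mimic samples (log2 change 0.07, SE 0.13, adjusted p = 0.676 by limma). COL4A1 was at 7.97, 8.64 and 7.57 FPKM in controls and 8.07, 9.33 and 7.78 in mimic samples (log2 change 0.05, SE 0.13, adjusted p = 0.760 by limma). The groups overlapped in both. With median-of-ratios scaling both were called higher, by log2 changes of 0.39 (adjusted p = 0.0132) and 0.36 (adjusted p = 0.0262), and COL4A1 also after quantile normalization (0.38, adjusted p = 0.0220) and after correction for GC content and length (0.32, adjusted p = 0.0351).

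Ratios of FPKM within a sample do not depend on scaling by a single factor per sample, such as median-of-ratios scaling. Quantile normalization and correction for GC content and length can change them. COL4A1 and COL4A2 together made up 30.1%, 35.6% and 30.9% of summed type IV FPKM in control samples and 63.1%, 59.0% and 62.8% in mimic samples. COL4A3 exceeded COL4A4 by a ratio of 2.29, 2.13 and 2.43 in controls, and in mimic samples the ratio was 1.011, 1.011 and 0.915. COL4A2 exceeded COL4A1 by a ratio of 2.43 ± 0.0818 in controls and 2.47 ± 0.242 in mimic samples (SD, n = 3). The groups did not overlap in the COL4A3 to COL4A4 ratio and overlapped in the COL4A2 to COL4A1 ratio. In an exact two-sided permutation test over the 6 samples, the smallest p that 3 against 3 allows is 0.1, and COL4A3 over COL4A4, COL4A3 over COL4A1 and COL4A5 over COL4A1 all reached it (adjusted p = 0.133 over 8 ratios). COL4A2 over COL4A1 had an exact permutation p of 0.9. The ratios here and below join genes whose levels and calls in the same 6 samples are also given. They describe those changes again and are no separate support for them.

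**Figure D2:**
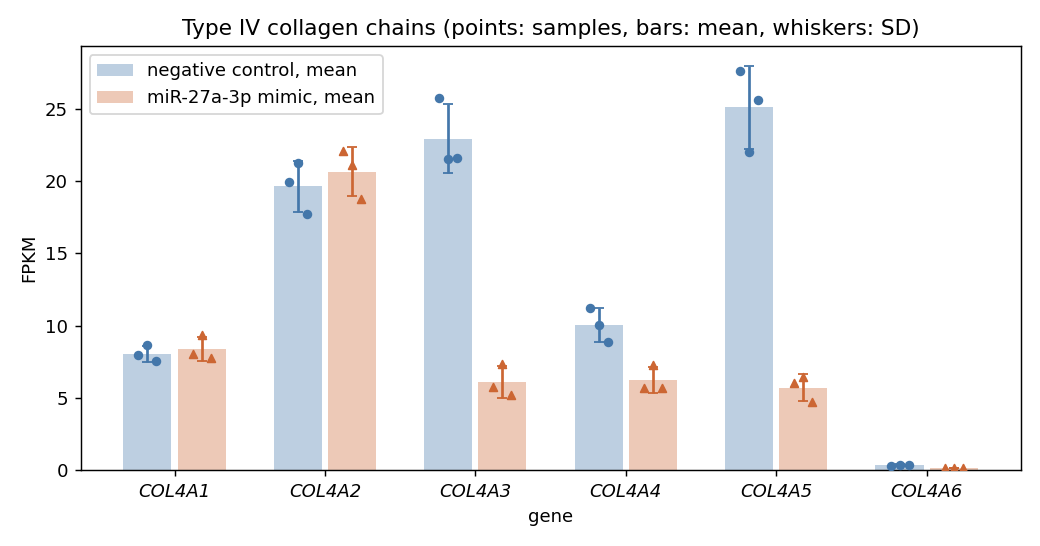
FPKM of the 6 type IV collagen genes, with points for samples, bars for group means and whiskers for SD (n = 3). COL4A3 and COL4A5 average 23.0 and 25.1 FPKM in controls and 6.11 and 5.72 in mimic samples, while COL4A1 and COL4A2 overlap between groups.

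The 6 type IV genes lie as 3 head-to-head pairs, and their start regions are shown because members of a pair can share regulatory sequence. In RefSeq the starts of COL4A2 and COL4A1 are 127 bases apart, those of COL4A3 and COL4A4 419, and that of COL4A5 lies 380 or 1416 bases from the COL4A6 starts. Each 300-base window holds the sequence before a start and a short stretch after it (RefSeq, GRCh38.p14), in the direction of the named gene. Capitals mark 3 short motifs on either strand, TGANTCA, the AP-1 word, GGGCGG, the GC box, and CCAAT. In the members' windows no match overlapped one of another motif.
COL4A2 (chr13:110307034-110307333, plus strand): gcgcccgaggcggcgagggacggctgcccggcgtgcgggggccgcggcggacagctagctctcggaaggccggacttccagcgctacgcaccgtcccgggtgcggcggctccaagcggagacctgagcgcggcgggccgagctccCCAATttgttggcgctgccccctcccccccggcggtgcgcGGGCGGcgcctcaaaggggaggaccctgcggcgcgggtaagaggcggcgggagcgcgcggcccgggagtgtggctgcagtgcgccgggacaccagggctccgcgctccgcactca
COL4A3 (chr2:227164374-227164673, plus strand): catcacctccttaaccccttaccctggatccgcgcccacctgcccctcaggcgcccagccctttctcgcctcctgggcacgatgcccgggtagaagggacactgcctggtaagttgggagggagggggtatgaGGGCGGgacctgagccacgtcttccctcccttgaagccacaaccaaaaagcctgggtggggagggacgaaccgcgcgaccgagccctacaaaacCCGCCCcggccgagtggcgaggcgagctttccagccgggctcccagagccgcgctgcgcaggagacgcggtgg
COL4A5 (chrX:108439588-108439887, plus strand): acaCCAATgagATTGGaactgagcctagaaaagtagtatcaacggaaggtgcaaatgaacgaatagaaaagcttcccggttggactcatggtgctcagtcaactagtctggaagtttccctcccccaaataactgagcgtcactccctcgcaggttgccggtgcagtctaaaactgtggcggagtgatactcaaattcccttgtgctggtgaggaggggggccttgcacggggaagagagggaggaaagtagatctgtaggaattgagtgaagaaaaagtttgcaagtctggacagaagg
The window of COL4A2 overlaps that of COL4A1 by 226 bases and is 77.7% G and C. That of COL4A3 is 67.7% and that of COL4A5 49.3% G and C. COL4A2 and COL4A1 were not called on the deposited scale, COL4A3 and COL4A4 both fell, and COL4A5 fell. COL4A6 was below the filter, at 0.322, 0.395 and 0.375 FPKM in controls and 0.136, 0.128 and 0.133 in mimic samples.

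Laminin alpha chains fell or were not called. LAMA3, the alpha chain of epithelial anchoring laminin, was at 10.4, 9.93 and 8.47 FPKM in controls and 2.19, 2.0 and 1.67 in mimic samples, so that controls were on average 4.92 times as high (log2 change -2.04, SE 0.15, adjusted p = 4.9e-05 by limma). LAMA1, the alpha chain of embryonic basement membranes, was at 23.5, 24.0 and 14.7 FPKM in controls and 12.1, 8.41 and 7.30 in mimic samples (log2 change -1.12, SE 0.24, adjusted p = 0.00552 by limma). Control sample 3 was the lowest of its group and lay close to mimic sample 1. LAMA5, the alpha chain of most adult epithelial sheets and the highest laminin, was at 109, 109 and 82.8 FPKM in controls and 79.97, 72.7 and 79.9 in mimic samples. Its groups were parted by little, and it was not called (log2 change -0.36, SE 0.15, adjusted p = 0.0803 by limma). Without control sample 3 limma called it lower (-0.49, adjusted p = 0.0285), as it did after quantile normalization (-0.44, adjusted p = 0.0222). After median-of-ratios scaling the change was -0.03 (adjusted p = 0.846 by limma). LAMA5 stayed uncalled in 15 of 18 alternatives.

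Beta chains moved in different directions. LAMB3, the partner of LAMA3, was at 54.4, 59.0 and 30.2 FPKM in controls and 104.6, 76.2 and 73.5 in mimic samples, and rose (log2 change 0.86, SE 0.27, adjusted p = 0.0275 by limma). The groups did not overlap, but the adjusted p was 0.0881 without mimic sample 1 and 0.0564 without mimic sample 2. With no filter on low values it was 0.0687 by limma. The LAMB3 call was kept in 15 of 18 alternatives. LAMB2 was at 65.0, 58.8 and 51.8 FPKM in controls and 43.9, 35.7 and 31.0 in mimic samples, and fell (log2 change -0.67, SE 0.17, adjusted p = 0.00993 by limma). LAMB1 was at 48.5, 60.1 and 50.6 FPKM in controls and 36.4, 36.4 and 32.8 in mimic samples (log2 change -0.58, SE 0.14, adjusted p = 0.00774 by limma). These are the beta chains of the common laminins, and all mimic samples were below all controls in both. The LAMB1 call was lost after median-of-ratios scaling (adjusted p = 0.0932) and after correction for GC content and length (adjusted p = 0.0611).

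LAMC1, the gamma chain shared by most laminins, was at 27.3, 28.5 and 23.9 FPKM in controls and 25.3, 30.2 and 24.5 in mimic samples and was not called (log2 change 0.00, SE 0.14, adjusted p = 0.991 by limma), though it was called higher under median-of-ratios scaling (0.32, adjusted p = 0.0412) and after correction for GC content and length (0.31, adjusted p = 0.0374). LAMC3 was near the filter, at 0.867, 0.867 and 0.582 FPKM in controls and 1.82, 1.45 and 1.76 in mimic samples, with no overlap and a call as higher (log2 change 0.78, SE 0.17, adjusted p = 0.00593 by limma). LAMC3 was tested only because of its mimic level, and with no filter on low values its adjusted p was 0.012. LAMA2 and LAMA4 were below the filter, with group means of 0.102 to 0.165 FPKM.

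LAMB3 exceeded LAMA3 by a ratio of 5.22, 5.94 and 3.57 in controls and of 47.8, 38.1 and 43.9 in mimic samples. By geometric means the ratio was 8.98 times as high in mimic samples, with no overlap. Its exact permutation p was 0.1, the smallest that 3 against 3 allows (adjusted p = 0.133 over 8 ratios). As both genes were already called in these samples, in opposite directions, the ratio is no separate support. LAMB1 over LAMB2 was 0.915 ± 0.147 in controls and 0.969 ± 0.122 in mimic samples (SD, n = 3; exact permutation p = 0.6). LAMB3 thus made up 14.8% ± 2.89 of summed laminin FPKM in controls and 30.7% ± 2.96 in mimic samples, and LAMA3 3.04% ± 0.194 and 0.711% ± 0.0489.

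**Figure D3:**
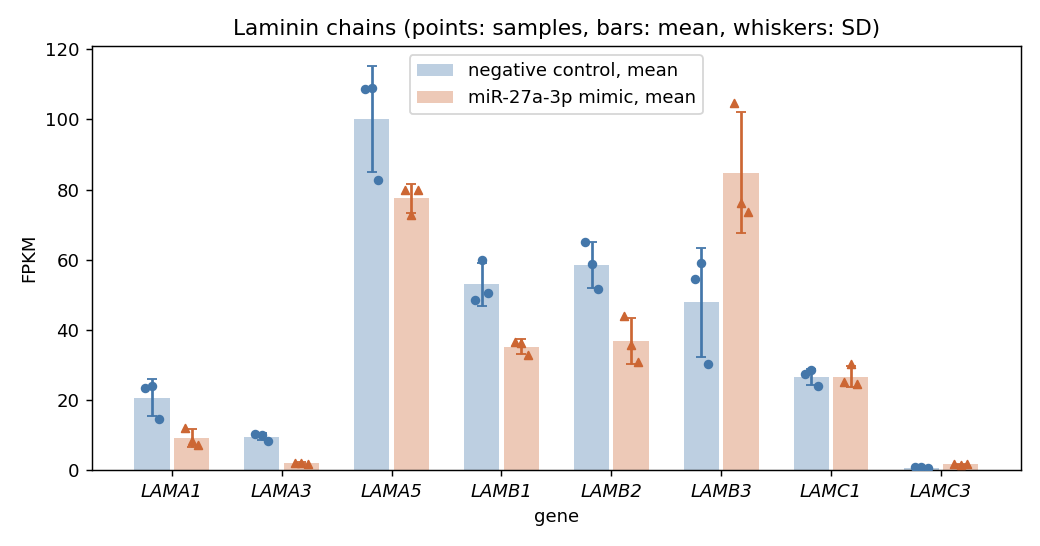
FPKM of 8 laminin genes, with points for samples, bars for group means and whiskers for SD (n = 3). LAMB3 is higher in mimic samples, LAMA1, LAMA3, LAMB1 and LAMB2 are lower, and LAMC1 overlaps between groups.

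Among the tested members for which a promoter window was found, only LAMA3 and LAMB3 held the AP-1 word TGANTCA. RefSeq windows were found for 22 of the 28 tested members (26 windows), and 2 windows (7.69%) held it, against 7.71% of all 35116 windows of this length. GGGCGG was in 24 of the 26 (92.3%), against 45.0% of all, and CCAAT in 8 (30.8%), against 34.6%. The windows of all genes include those of genes that were not tested, so these shares compare unlike sets. Both windows are shown because the genes with this word moved in opposite directions. That of LAMA3 lies at a start inside the gene, and that of LAMB3 at 1 of its 3 listed starts.
LAMA3 (chr18:23872770-23873069, plus strand): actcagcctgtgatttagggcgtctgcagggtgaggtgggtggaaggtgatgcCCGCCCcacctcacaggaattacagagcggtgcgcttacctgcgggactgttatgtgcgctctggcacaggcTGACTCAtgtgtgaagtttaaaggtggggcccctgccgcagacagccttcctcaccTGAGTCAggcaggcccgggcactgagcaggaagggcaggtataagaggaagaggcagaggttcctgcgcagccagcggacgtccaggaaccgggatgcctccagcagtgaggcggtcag
LAMB3 (chr1:209651325-209651624, minus strand): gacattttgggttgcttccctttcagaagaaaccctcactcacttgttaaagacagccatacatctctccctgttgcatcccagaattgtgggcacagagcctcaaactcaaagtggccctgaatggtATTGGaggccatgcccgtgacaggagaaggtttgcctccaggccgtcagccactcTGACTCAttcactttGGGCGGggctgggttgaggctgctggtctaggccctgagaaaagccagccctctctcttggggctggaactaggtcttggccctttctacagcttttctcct
A match describes letters in the window and not a bound factor.

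Among fibrillar collagens, which form the cables of connective tissue, COL1A1 was at 17.8, 17.4 and 16.98 FPKM in controls and 6.66, 7.80 and 9.49 in mimic samples. It fell (log2 change -1.09, SE 0.15, adjusted p = 0.000606 by limma), with the highest mimic sample well below the lowest control. COL27A1, a fibrillar chain of cartilage and one of the genes with an 8mer, was at 5.46, 3.39 and 3.72 FPKM in controls and 1.52, 1.72 and 1.92 in mimic samples (log2 change -1.06, SE 0.19, adjusted p = 0.00233 by limma). After quantile normalization its adjusted p was 0.0863. COL5A1, which sets fibril diameter and also holds an 8mer, was at 33.1, 31.2 and 27.1 FPKM in controls and 23.4, 24.4 and 20.5 in mimic samples. It fell without overlap (log2 change -0.41, SE 0.14, adjusted p = 0.0360 by limma), but by a size near the shift of all genes, and after median-of-ratios scaling the change was -0.09 (adjusted p = 0.464). Its adjusted p by limma was also 0.139, 0.107, 0.0525 and 0.0915 without control sample 1, control sample 2, mimic sample 2 and mimic sample 3, in that order. The COL5A1 call was kept in 8 of 18 alternatives. COL5A3 overlapped between groups and was not called (1.60 ± 0.311 and 1.63 ± 0.269 FPKM, SD, n = 3; adjusted p = 0.923 by limma), though quantile normalization called it higher (0.75, adjusted p = 0.00658).

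Of the anchoring and beaded collagens, COL7A1, which forms the anchoring fibrils that tie basement membrane to connective tissue, was at 46.8, 47.0 and 36.0 FPKM in controls and 17.6, 15.5 and 16.3 in mimic samples. It was the highest collagen in every control sample and fell (log2 change -1.36, SE 0.15, adjusted p = 0.000206 by limma). COL6A1, a chain of beaded filaments, was at 25.0, 22.2 and 22.9 FPKM in controls and 16.7, 17.6 and 18.04 in mimic samples (log2 change -0.41, SE 0.12, adjusted p = 0.0218 by limma). This fall too was near the shift of all genes, at -0.09 after median-of-ratios scaling (adjusted p = 0.537 by limma). Its adjusted p by limma was 0.101, 0.051 and 0.0503 without control sample 1, control sample 2 and mimic sample 2. The COL6A1 call was kept in 11 of 18 alternatives. COL8A1, a short-chain collagen of vessel walls, had means of 2.07 ± 0.549 and 1.35 ± 0.186 FPKM (SD, n = 3) and was not called (adjusted p = 0.0850 by limma). It was called lower without control sample 3 (-0.63, adjusted p = 0.0269), but its change was -0.09 after GC and length correction (adjusted p = 0.699) and 0.25 after quantile normalization (adjusted p = 0.326).

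Collagens that decorate the surface of fibrils moved in both directions. COL12A1 was at 18.1, 21.0 and 14.9 FPKM in controls and 38.0, 41.4 and 37.6 in mimic samples. Every mimic sample lay far above every control, and the gene rose by a log2 change of 1.11 (SE 0.15, adjusted p = 0.000591 by limma). COL9A2, a chain of cartilage type IX collagen, was at 2.61, 2.76 and 1.76 FPKM in controls and 6.80, 6.59 and 5.60 in mimic samples, the largest rise among the members (log2 change 1.26, SE 0.18, adjusted p = 0.000687 by limma). Its partner COL9A3 overlapped between groups at 4.58 ± 1.44 and 4.35 ± 0.944 FPKM (SD, n = 3; adjusted p = 0.886 by limma), and COL9A1 was at 0. COL16A1 was at 12.9, 11.8 and 9.03 FPKM in controls and 5.93, 4.19 and 3.51 in mimic samples, and fell without overlap (log2 change -1.23, SE 0.21, adjusted p = 0.00165 by limma).

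The summed collagen level, for which no test was run, was 268, 255 and 224 FPKM in controls and 176, 180.3 and 164 in mimic samples. COL12A1 made up 6.75%, 8.21% and 6.64% of it in controls and 21.6%, 23.0% and 22.9% in mimic samples, where it was the highest collagen. COL7A1, the highest in controls, made up 17.3% ± 1.17 of the sum there and 9.51% ± 0.792 in mimic samples (SD, n = 3). The group means of the share of COL5A1 (12.2% ± 0.135 and 13.1% ± 0.579) and COL6A1 (9.41% ± 0.762 and 10.1% ± 0.774) were near each other in the groups. The shares of COL6A1 overlapped between groups. Those of COL5A1 did not, at 12.1% to 12.4% in controls and 12.5% to 13.6% in mimic samples. By geometric means, COL12A1 over COL1A1 was 4.81 times as high in mimic samples. Its exact permutation p was 0.1, the smallest possible (adjusted p = 0.133 over 8 ratios). Here too both genes were already called in these samples, in opposite directions, so the ratio is no separate support.

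**Figure D4:**
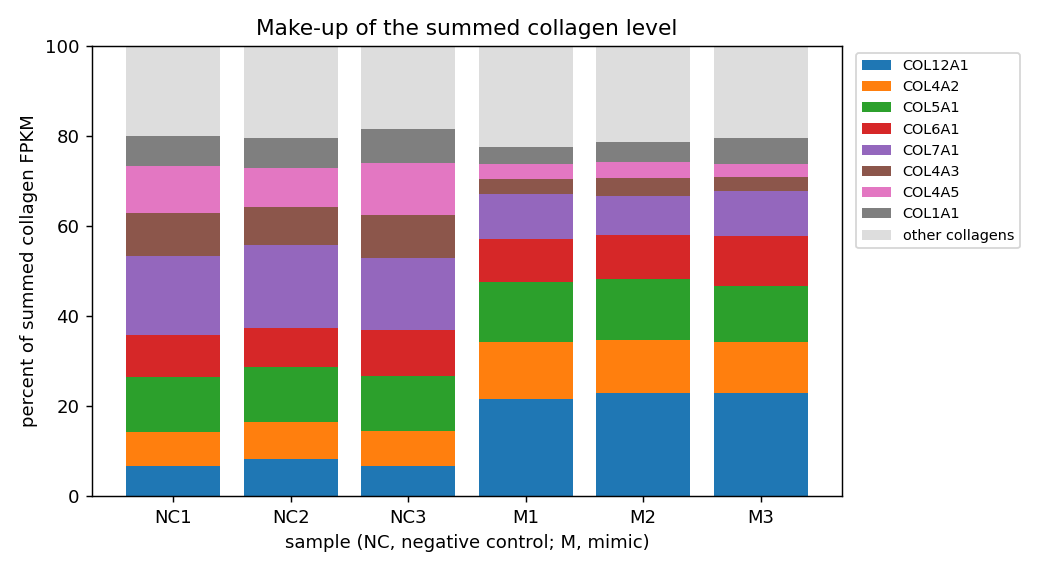
Percent of the summed FPKM of the 44 collagen genes taken by 8 of them in each sample. COL12A1 takes 6.64% to 8.21% in controls and 21.6% to 23.0% in mimic samples, while COL7A1, COL4A3 and COL4A5 take smaller shares in mimic samples.

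Fibulins and fibronectin differed from one another. FBLN1 was at 309.9, 325 and 285 FPKM in controls and 314, 290.1 and 333 in mimic samples, with overlapping groups (log2 change 0.03, SE 0.14, adjusted p = 0.887 by limma), and no alternative called it. FBLN5, which helps assemble elastic fibres and holds an 8mer, was at 18.3, 17.1 and 14.3 FPKM in controls and 20.7, 17.6 and 18.9 in mimic samples. It overlapped and was not called (log2 change 0.20, SE 0.14, adjusted p = 0.267 by limma), but was called higher under median-of-ratios scaling (0.52, adjusted p = 0.00957), quantile normalization (0.36, adjusted p = 0.0364) and correction for GC content and length (0.36, adjusted p = 0.0328). FBLN7, a cell adhesion protein, had means of 3.76 ± 1.17 and 1.67 ± 0.585 FPKM and fell (log2 change -0.96, SE 0.27, adjusted p = 0.0168 by limma). Its call was lost after quantile normalization (-0.33, adjusted p = 0.343), GC and length correction (-0.70, adjusted p = 0.0603) and median-of-ratios scaling (-0.69, adjusted p = 0.0543), and the adjusted p was 0.056, 0.0525 and 0.0638 without control sample 1, control sample 2 and mimic sample 2. FN1 was at 0.726, 0.886 and 1.19 FPKM in controls and 1.498, 1.64 and 1.58 in mimic samples, and was called higher from a low level (log2 change 0.54, SE 0.17, adjusted p = 0.0281 by limma). It too was tested only because of its mimic level, and with no filter its adjusted p was 0.0408. Leaving out control sample 1 or 2 or any 1 mimic sample gave an adjusted p of 0.0511 to 0.103 for FN1, and leaving mitochondrial genes out of the total gave 0.059.

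**Figure D5:**
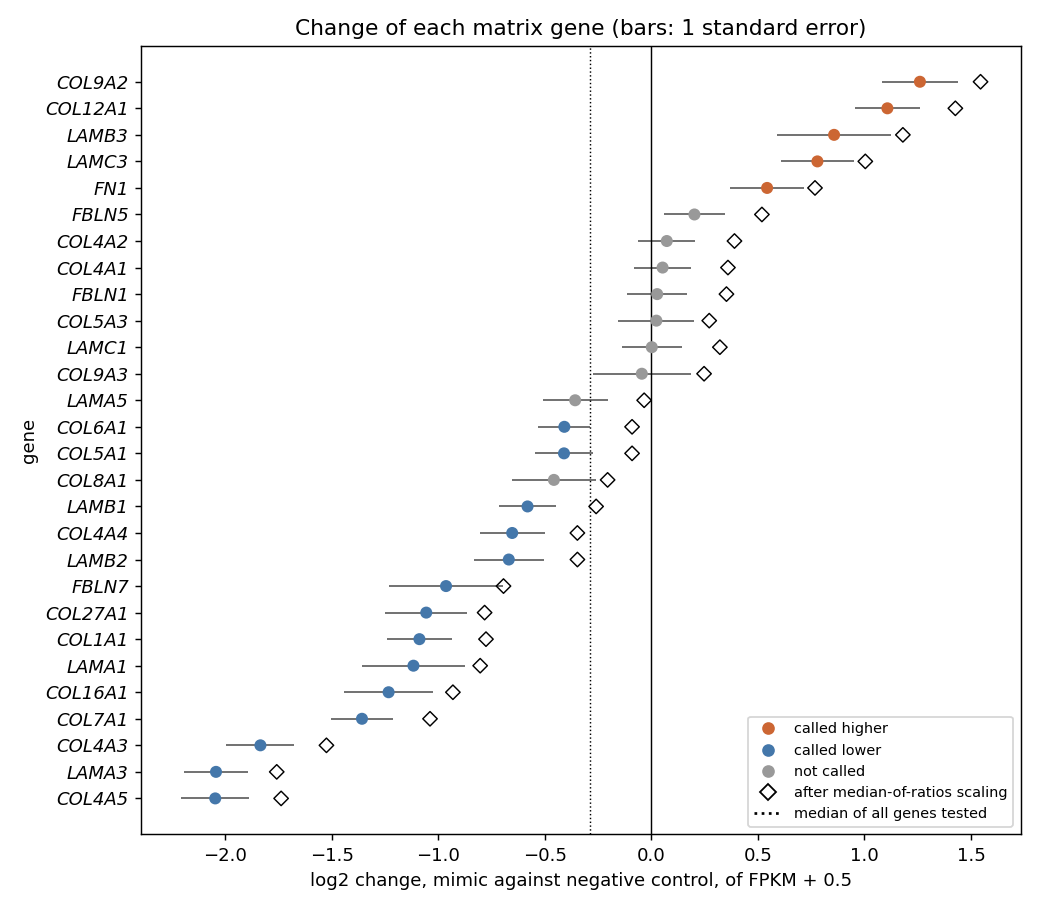
Log2 change (mimic against negative control) of the 28 tested genes on the log2(FPKM + 0.5) scale, with bars of 1 standard error; colors show the limma call and open diamonds the value after median-of-ratios scaling. COL4A5, LAMA3 and COL4A3 lie lowest, COL9A2 and COL12A1 highest, and scaling moves all genes to the right by about the median of all genes tested (dotted line, -0.29).

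The other 33 members had means below 1 FPKM over the 6 samples, 21 of them below 0.1. The 3 nearest to the filter were COL11A2 (0.782), COL15A1 (0.724) and COL18A1 (0.543), and the nearest above it were COL5A3 (1.62), FN1 (1.25) and LAMC3 (1.22). COL25A1, a transmembrane collagen, was at 0.893, 0.945 and 0.432 FPKM in controls and 0.0327, 0.00826 and 0.0442 in mimic samples. With no filter on low values, COL25A1 (log2 change -1.22, adjusted p = 0.00534), COL11A2 (-0.57, adjusted p = 0.0363), COL4A6 (-0.45, adjusted p = 0.0172) and COL26A1 (-0.56, adjusted p = 0.0173) were called lower by limma and none of these low members higher. At such levels log2(FPKM + 0.5) understates a change.

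The 28 tested members, chosen by gene family, differed from all tested genes in median exon length, gene span and GC content. Their median exon length was 9339 bases, against 4365 for all tested genes, and their median gene span 82.4 against 24.3 kb. The median GC content of their longest transcript was 58.0% against 48.4%. Single members ranged from 4217 to 19293 bases and from 42.2% to 67.4% GC, so not every member had these features. Correction of each sample for GC content and length gave 8 members higher and 11 lower, against 26.3% and 23.4% of all genes tested. An opposite-strand gene of at least 1 FPKM overlapped 6 of the 28 (LAMA5, LAMB1, COL4A1, COL4A2, COL4A5 and COL9A3). The strand setting of the counting is not given, so their reads may be shared with that gene, and COL4A1 and COL4A2 overlap each other at their starts.

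Enzymes and chaperones of collagen synthesis mostly were not called on the deposited scale. Of 34 such genes 24 were tested, 3 rose and 2 fell, against 12.0% and 39.6% of all genes tested, with a median log2 change of -0.05. With median-of-ratios scaling 12 were higher and 2 lower, against 26.9% and 27.4% of all genes. MIA3, which exports bulky procollagen from the endoplasmic reticulum, fell from 32.01 ± 1.45 to 18.6 ± 2.50 FPKM (SD, n = 3; adjusted p = 0.00215 by limma), a call lost after correction for GC content and length (adjusted p = 0.228). FKBP10, a collagen chaperone, fell from 72.5 ± 8.04 to 46.3 ± 3.57 FPKM (adjusted p = 0.00574). COLGALT1, which adds galactose to collagen, rose from 55.7 ± 5.03 to 93.6 ± 14.3 FPKM (adjusted p = 0.00511). CRTAP, of the prolyl 3-hydroxylase complex, rose from 42.1 ± 3.01 to 54.1 ± 2.63 FPKM (adjusted p = 0.0397). The CRTAP call was lost without control sample 1, 2 or 3 or mimic sample 2 or 3, with adjusted p from 0.0625 to 0.149.

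Partners in the basement membrane and receptors outside the integrins changed in both directions. Of 26 such genes 17 were tested, 5 rose and 6 fell, against 12.0% and 39.6% of all genes tested, with a median log2 change of -0.14. Under median-of-ratios scaling the counts were 7 and 3, against 26.9% and 27.4%. NID2, a nidogen that links laminin to type IV collagen, fell from 2.07 ± 0.470 to 0.205 ± 0.112 FPKM (SD, n = 3; adjusted p = 0.000215 by limma). NID2 and DDR2 passed the filter only through the controls, and without them 4 genes fell; with no filter the adjusted p of NID2 was 0.00156. SMOC1, a calcium-binding basement membrane protein, fell from 171 ± 19.7 to 86.8 ± 12.5 FPKM (adjusted p = 0.0015). SDC3, a heparan sulfate receptor, rose from 5.40 ± 0.0683 to 9.89 ± 1.04 FPKM (adjusted p = 0.00129). RPSA, a ribosomal protein also described as a laminin receptor, rose from 327 ± 37.0 to 787 ± 228 FPKM (adjusted p = 0.00230), with a value that is uncertain because of its many processed pseudogenes.

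Elastic fibre and fibronectin partners were tested in 13 of 25 genes, of which 4 rose and 5 fell, with a median log2 change of -0.31. All genes tested gave 12.0% and 39.6%, so the share that fell was near the background. Under median-of-ratios scaling 6 were higher and 2 lower, against 26.9% and 27.4%. The fibulin relatives parted: EFEMP1 rose from 63.6 ± 9.24 to 105.8 ± 6.66 FPKM (SD, n = 3; adjusted p = 0.00377 by limma) and EFEMP2 fell from 1.90 ± 0.264 to 0.486 ± 0.0713 FPKM (adjusted p = 0.000437). EFEMP2 passed the filter only through the controls, and without it 4 genes fell; with no filter its adjusted p was 0.00179. LTBP4, which tethers latent TGF-beta to the matrix, fell from 21.0 ± 2.73 to 12.7 ± 1.40 FPKM (adjusted p = 0.00484). MFAP1, listed here for its name but known as a splicing factor, rose from 15.3 ± 2.45 to 29.7 ± 1.12 FPKM (adjusted p = 0.00104).

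Matrix proteases and their inhibitors were tested in 14 of 27 genes, of which 4 rose and 5 fell, with a median log2 change of -0.29. The share that fell was near the 39.6% of all genes tested, and 12.0% of all genes rose. Under median-of-ratios scaling 4 were higher and 4 lower, against 26.9% and 27.4%. TIMP3, a matrix-bound inhibitor of metalloproteinases, rose from 8.56 ± 0.893 to 26.0 ± 1.25 FPKM (SD, n = 3; adjusted p = 7.7e-05 by limma). MMP24, a membrane metalloproteinase, rose from 1.12 ± 0.168 to 4.63 ± 0.887 FPKM (adjusted p = 0.00019). ADAMTS1, which cleaves proteoglycans, fell from 8.81 ± 0.452 to 2.90 ± 0.325 FPKM (adjusted p = 0.000115), and CTSK, a collagen-cleaving cathepsin, from 3.31 ± 0.131 to 1.02 ± 0.0615 FPKM (adjusted p = 0.000176).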

How the data were processed

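RNA sequencing values of 6 samples were taken as deposited. The authors deposited FPKM per gene and sample, per the file headers; FastQC, HISAT2 and hg38 are named by the submitters' processing notes. The sources used here do not give versions, the tool that made FPKM, its strand setting or the annotation. The 6 single-sample tables held the same values as the series table. Groups follow the treatment label. The 14439 genes that averaged 1 FPKM or more were tested with limma-trend with robust moderation (limma 3.58.1, R 4.3.3) on log2(FPKM + 0.5), with no covariates and no further scaling. P-values are two-sided and adjusted by Benjamini-Hochberg over all genes tested. The limma step was run on simulated normal values in which few genes changed. In these data many genes were called, so that run cannot vouch for the calls given here. Lengths, GC content and UTRs came from GENCODE 29, whose gene positions equal the files' for 50 of the 61 members. Members and gene lists were chosen with earlier results of these data known. Values per sample are given for members with a mean of at least 10 FPKM or called with at least a 2-fold change; other members given by sample or mean (COL4A1, COL4A4, COL4A6, COL25A1, FN1, LAMC3 and those named for low partners or lost calls) were chosen after their values were seen. For related lists, the 4 called genes with the smallest p are named. Alternatives changed the pseudocount (0.1, 1), filter, scaling, moderation, GC and length, replicate block and samples. One low member is not reported here.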

Additional observations from a re-analysis of the deposited data

How the results depend on the processing

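Of the 19 members called, 11 kept their call and direction in every one of the 18 alternatives that could be run for them (LAMA1, LAMA3, LAMB2, LAMC3, COL1A1, COL4A3, COL4A5, COL7A1, COL9A2, COL12A1 and COL16A1; LAMC3 passed the filter only through the mimic group), and no called member changed sign. Members called higher, 5 on the deposited scale, numbered 9 after median-of-ratios scaling, 8 after quantile normalization, 8 after GC and length correction, 8 with the replicate block and that correction together, and 2 at a mean of at least 5 FPKM, where fewer genes were tested; without 1 sample they numbered 3 to 5, with 3 without mimic sample 1 or 2. Members called lower, 14, numbered 10 to 17 over all alternatives. Among collagen synthesis genes, 12, 13 and 11 were higher after median-of-ratios scaling, after GC and length correction, and with that correction and the block, 1 without sample 3 of both groups, and 1 to 2 without 1 sample (1 without control sample 1 or mimic sample 3); 1 was lower after GC and length correction, with or without the block. Among basement membrane partners 3 were lower after median-of-ratios scaling and 3 higher without sample 3 of both groups. Elastic fibre partners called lower numbered 2 at a mean of at least 5 FPKM, 2 after median-of-ratios scaling, 3 after quantile normalization and 3 to 5 without 1 sample (3 without control sample 2 or mimic sample 3). Of the proteases 2 were higher and 3 lower among genes averaging 5 FPKM or more, and 8 were lower with no filter, 3 after quantile normalization and 3 under the block combined with GC and length correction. The cause of these shifts was not tested. Some alternatives also leave a different number of genes or samples. The labels do not say whether the replicate numbers pair the samples, and the values here do not settle it. Deviations of same-numbered samples correlated at 0.18, -0.05 and 0.22 (Pearson, across genes). Control samples 1 and 3 correlated best with the mimic samples of their own number. Control sample 2 correlated best with mimic sample 1 (0.13) and mimic sample 2 with control sample 3 (0.11), not with their own numbers. With the replicate block the members numbered 5 higher and 14 lower, as without it. Over all tested genes the block gave 2117 higher and 5994 lower, against 1735 and 5718 without it. Depth is only implied, so no counting error can be given for low members.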
